A study of Mus musculus with 10 samples.

Results

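Cytosolic and mitochondrial heat shock proteins were examined in whole subcutaneous tumours of MC38, a murine line derived from a colon adenocarcinoma. The 10 genes were chosen by name: the transcription factor gene Hsf1, the HSP90 genes Hsp90aa1 and Hsp90ab1, the HSP70 genes Hspa1a, Hspa1b and Hspa8, the HSP110 gene Hsph1, the HSP40 gene Dnajb1, and the mitochondrial chaperonin genes Hspd1 and Hspe1. All 10 were found among the 18223 protein-coding genes of the deposited table, and all 10 passed the filter on low counts. Bulk RNA-seq was done on 5 tumours of high tumour burden (HTB) and 5 of low tumour burden (LTB). Under treatment, HTB tumours carry the number 2000000 and LTB tumours 500000, each with 14 days, and the labels do not say what these numbers count. No label gives a measured tumour size, and host strain, sex and age were not given in the sources used here. Every library is a whole tumour, mixing tumour cells, immune cells and stroma, so fewer cells of a type and less RNA per cell cannot be told apart. Since no label ties a library to its own animal, p-values measure only the spread between these libraries.

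Heat shock proteins are chaperones, which bind unfolded or partly folded proteins and help them fold, assemble or be degraded. HSP70 binds short hydrophobic stretches of a client with the help of HSP40, which delivers the client and stimulates ATP hydrolysis, and of HSP110, which exchanges the nucleotide. HSP90 acts later on nearly folded clients such as kinases and steroid receptors, while the HSP60 and HSP10 chaperonin folds proteins inside mitochondria. HSF1 binds heat shock elements, inverted repeats of the letters GAA, and turns on the inducible members under stress. Each family has a copy that is always on (Hsp90ab1, Hspa8) and one or more that respond to stress (Hsp90aa1, Hspa1a, Hspa1b). Tumour cells are known to keep chaperones high.

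Library totals ranged from 24884292 to 27185168 estimated reads in HTB and from 23070917 to 26880191 in LTB, and the 10 members together took 0.83% to 1.05% of reads in HTB and 0.97% to 1.07% in LTB. HTB replicate 2 stood apart, with 16650 CPM (read counts scaled to library totals with TMM factors) summed over 15 skeletal muscle markers against at most 84.6 CPM in the rest of HTB and 12.9 CPM in LTB. Its 10 adipocyte markers summed to 6080 CPM against at most 284 CPM in the rest of HTB and 146.5 CPM in LTB. LTB replicate 1 had the most reads of 9 T cell markers, 264 CPM against 56.1 to 113 CPM in the rest of LTB and 19.4 to 47.3 CPM in HTB. Of these 9 T cell markers 7 fell in HTB, and all 5 tested erythroid markers rose in edgeR, of which 1 passed in DESeq2 and 0 in limma voom. Of 10 macrophage markers 4 fell and 1 rose. Their sum was lower in HTB without overlap, at 507 to 813 CPM against 910 to 2019 CPM. Its largest part was Lyz2, which reached at most 364 CPM in HTB and at least 494 CPM in LTB. Itgam, Msr1 and Cd68 were also lower without overlap. Csf1r, Mrc1 and Mertk overlapped between the groups (log2 fold change -0.30, -0.08 and 0.32), and Cd163 rose (2.62). The sum therefore does not stand for every marker of the list. Of 8 tested neutrophil markers 3 fell, and LTB replicate 1 was the highest library for both lists, at 2019 and 228 CPM. The part of these cell types in the members' values was not tested. Epithelial markers were nearly absent, with a sum over 8 genes of 2.64 to 6.78 CPM (HTB) and 6.30 to 16.1 CPM (LTB). Of these, Cdh1 averaged 3.45 and 8.90 CPM, and the keratin genes Krt8, Krt18, Krt19 and Krt20 averaged under 1 CPM in both groups. These markers thus give no epithelial profile for the labelled line.

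The upstream sequences of 2 sets of members are shown because both sets raise the question of how far their reads and their levels are tied. Hspa1a and Hspa1b lie in tandem on chromosome 17 and share almost the whole of the 250 bases before their start sites. The RefSeq windows (GRCm38.p6, minus strand, chr17:34972157-34972406 and chr17:34959239-34959488) are given 5′ to 3′ in lower case, with the match to GAANNTTC, the core of a heat shock element, in capitals.
Hspa1a: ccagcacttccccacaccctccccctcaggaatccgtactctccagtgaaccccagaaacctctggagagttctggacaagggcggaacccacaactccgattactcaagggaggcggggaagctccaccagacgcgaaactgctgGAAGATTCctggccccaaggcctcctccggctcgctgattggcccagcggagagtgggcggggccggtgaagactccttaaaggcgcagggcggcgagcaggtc
Hspa1b: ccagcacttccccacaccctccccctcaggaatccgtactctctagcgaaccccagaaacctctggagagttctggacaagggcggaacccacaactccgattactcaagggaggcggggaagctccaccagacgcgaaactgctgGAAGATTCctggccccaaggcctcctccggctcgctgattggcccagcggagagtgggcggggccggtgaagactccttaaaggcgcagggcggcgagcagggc

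These windows are identical at 247 of 250 bases. Counting from 1 at the 5′ end of the window, with the Hspa1a base first, the differences are C44T, T47C and T249G. The match to GAANNTTC lies 104 to 97 bases before the start in both genes. GAANNTTC reads the same on both strands and was found in 6.69% of 32851 RefSeq windows of this length. Inside the transcripts the copies stay close: 82.3% of the 1877 windows of 50 bases in the Hspa1a coding sequence occur unchanged in that of Hspa1b, or 58.8% over the whole Hspa1a transcript. The deposited table moreover places Hspa1b (NCBI gene 15511) at chr17:34956429-34972156, a span that covers the whole of Hspa1a (193740, chr17:34969359-34972156), whereas GENCODE M21 ends Hspa1b at 34959238. Values of the single copies are therefore uncertain, and their sum is given beside them. Neither Hsp90aa1 and Hsp90ab1 nor Hspa1b and Hspa8 share any 50-base window of their transcripts, so no read of that length matches both copies of either pair without mismatch.

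Hspd1 (15510, minus strand) and Hspe1 (15528, plus strand) lie head to head on chromosome 1, and their deposited spans overlap at the 5′ ends. The deposited table gives chr1:55077637-55088217 and chr1:55088148-55091317. A longer heat shock element lies before the Hspe1 start and inside the deposited span of Hspd1, shown on the plus strand with the letters of its overlapping matches to GAANNTTC followed by NNGAA (searched on both strands, so that every match also holds GAANNTTC) in capitals.
Hspe1 and Hspd1, chr1:55088053-55088082: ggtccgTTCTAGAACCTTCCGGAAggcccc

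The 18 capital letters lie 89 to 72 bases before the Hspe1 start in RefSeq. GAANNTTC followed by NNGAA occurs in 0.466% of the 32851 windows. The windows of Hsph1 and Dnajb1 held no match to either form. The window before the Hspd1 start at 55088243 held none either, since the element lies 167 bases inside the gene from there. It does lie in the window before another Hspd1 start in RefSeq, at 55087932. The tables give windows for 6 of the 10 members; Hsf1, Hsp90aa1, Hsp90ab1 and Hspa8 were not matched.

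Transcript levels of the members spanned more than 3 orders of magnitude, an extent set by Hspa1a, whose single-copy value is uncertain. To compare genes, CPM was divided by the length of the longest principal transcript in GENCODE M21. On this per-kilobase scale Hsp90ab1 stood highest, at a mean level of 1761 in HTB and 1731 in LTB, followed by Hspa8 at 1202 and 1457, and the library ranges of these 2 genes overlapped (1552 to 1898 against 991 to 1724). Hsp90aa1 followed at 280.3 and 391, Hspd1 at 198.0 and 223, and Hspe1 at 155 and 185, again with overlapping ranges. Hsf1 (38.5 and 43.0), Hsph1 (32.5 and 37.2) and Dnajb1 (30.3 and 37.1) formed a lower tier whose ranges overlapped. Hspa1b (17.9 and 13.8) came below them, and Hspa1a (1.0 and 0.867) was the lowest, with 26 to 202 reads in a library. The constitutive copies of HSP90 and HSP70 were thus the most abundant members in every library, above the inducible copies of their own families.

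With high burden, 2 of the 10 members fell, Hsp90aa1 and Dnajb1, and 0 rose, in edgeR's quasi-likelihood test adjusted over 13469 genes. The share called over all genes was 11.4%, with 7.51% lower and 3.91% higher in HTB, and a count of 2 in 10 is not far from that share. At an unadjusted p under 0.05 in edgeR the counts were 3 lower and 0 higher. The share over all genes was not counted at that threshold. DESeq2 and limma voom each gave 2 lower and 0 higher. Over all genes, DESeq2 called 1430 lower and 1097 higher of 14022, and limma voom called 1000 lower and 479 higher of 13469. The CPM of the groups overlapped for all 10 members, while 7.06% of genes were lower and 4.68% higher in HTB without overlap. The median log2 fold change of the 10 members was -0.18, beside 0.02 over all genes tested, and 7 of the 10 values were negative. The calls lay close to the threshold. They were lost with the replicate number as a block, and each passed in only 3 of the 10 fits that leave out 1 library. The comparison asks whether stress chaperones differ with tumour burden, the contrast the labels set up, and these values do not settle it.

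**Figure D1:**
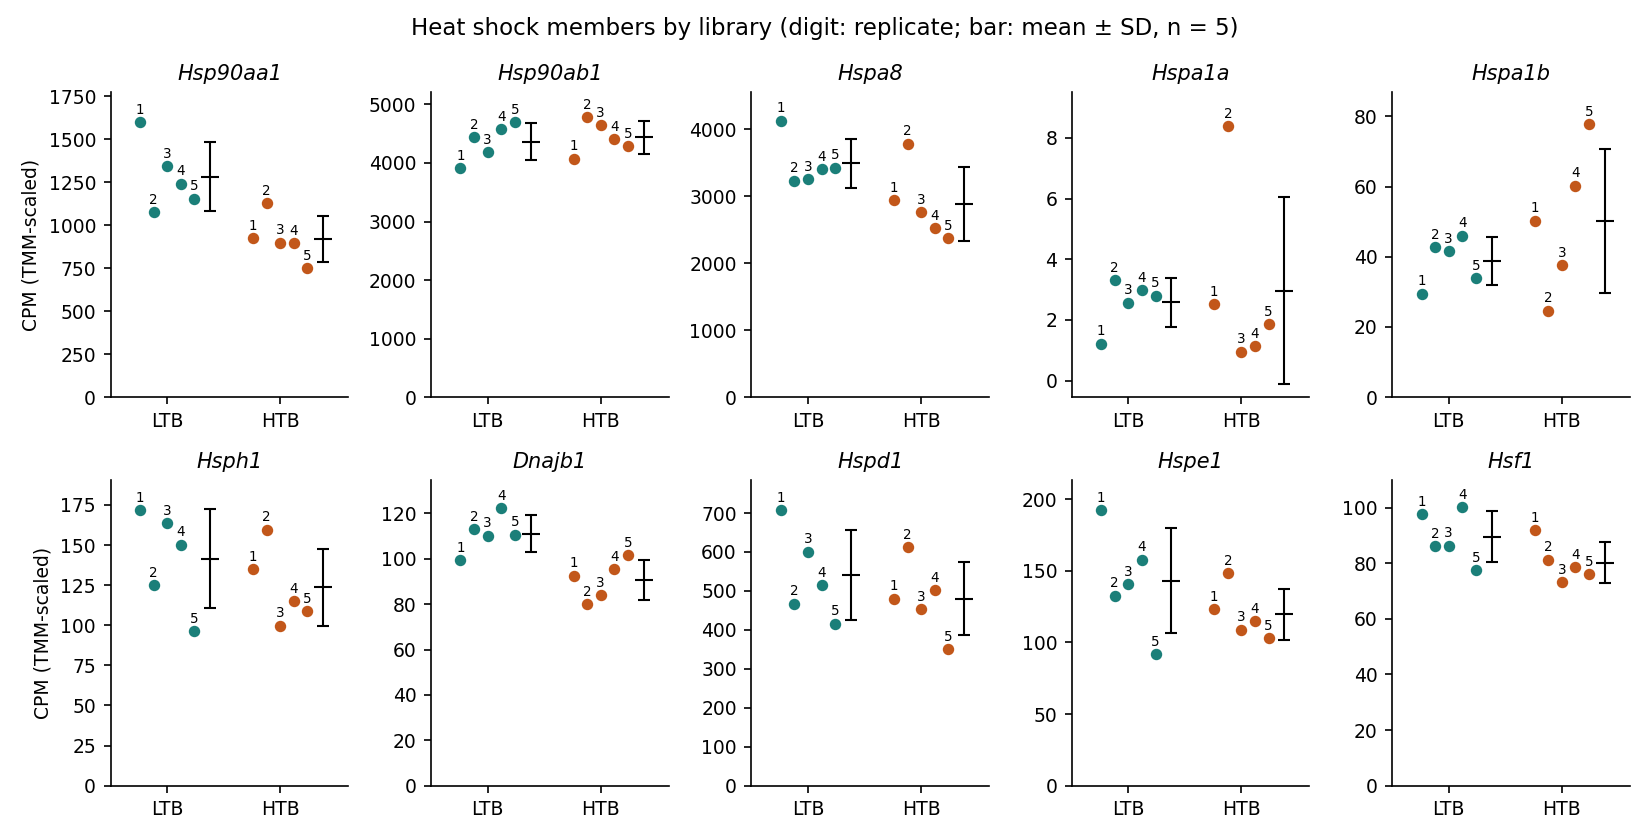
CPM of the 10 members in each library (y axis from 0, or just below it for Hspa1a), with LTB at the left and HTB at the right of each panel. Each point is a library labelled by replicate, and bars give the mean ± SD of 5. Hsp90aa1 and Dnajb1 are lower in 4 of 5 HTB libraries than in any LTB library, while Hspa1a is set by HTB replicate 2.

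Among the HSP90 genes, the inducible Hsp90aa1 (15519) fell. Its level was 925, 1130, 898, 895 and 750.1 CPM in HTB replicates 1 to 5, and 1601, 1077, 1343, 1241 and 1155 CPM in LTB replicates 1 to 5. The groups overlapped through 1 library: HTB replicate 2 lay above LTB replicate 2, and the other 4 HTB libraries lay below every LTB library. The means were 920 ± 136 CPM (SD, n = 5) in HTB and 1283 ± 203 CPM (n = 5) in LTB. Its fitted log2 fold change was -0.48 ± 0.13 (SE; adjusted p = 0.0351, edgeR's quasi-likelihood test with Benjamini-Hochberg adjustment). The authors' deposited table, made with DESeq2 per its headers, lists -0.476 with a q of 0.00392. Without HTB replicate 2 the change was -0.56 (adjusted p = 0.00972). Without LTB replicate 1, the highest library, it was -0.39 (adjusted p = 0.0582). It also missed the threshold without HTB replicate 1 (adjusted p = 0.0633), 3 (0.0825), 4 (0.0821) or 5 (0.0723), and without LTB replicate 3 (0.0754) or 4 (0.0557). The deposited table gives Hsp90aa1 at chr12:110691036-110697116 on the plus strand, while GENCODE M21 has the gene on the minus strand.

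The constitutive Hsp90ab1 (15516, chr17:45567778-45573261, minus strand) was level between the groups within the precision of the fit. It stood at 4074, 4783, 4649, 4406 and 4282 CPM in HTB and at 3911, 4441, 4182, 4583 and 4698 CPM in LTB, with SDs of 6.39% and 7.28% of the mean, the smallest relative spread of the 10 members in both groups. The log2 fold change was 0.02 ± 0.07 (adjusted p = 0.84). The ratio of Hsp90aa1 to Hsp90ab1 within a library was 0.227, 0.236, 0.193, 0.203 and 0.175 in HTB and 0.409, 0.242, 0.321, 0.271 and 0.246 in LTB. All 5 HTB ratios lay below all 5 LTB ratios, with means of 0.207 ± 0.0249 and 0.298 ± 0.0698 (SD, n = 5 each). For comparison, 6.40% of the other tested genes had a ratio to Hsp90ab1 that was lower in HTB without overlap. HTB replicate 2 had the highest HTB ratio and LTB replicate 1 the highest ratio of all. This ratio is a description and was not tested.

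**Figure D2:**
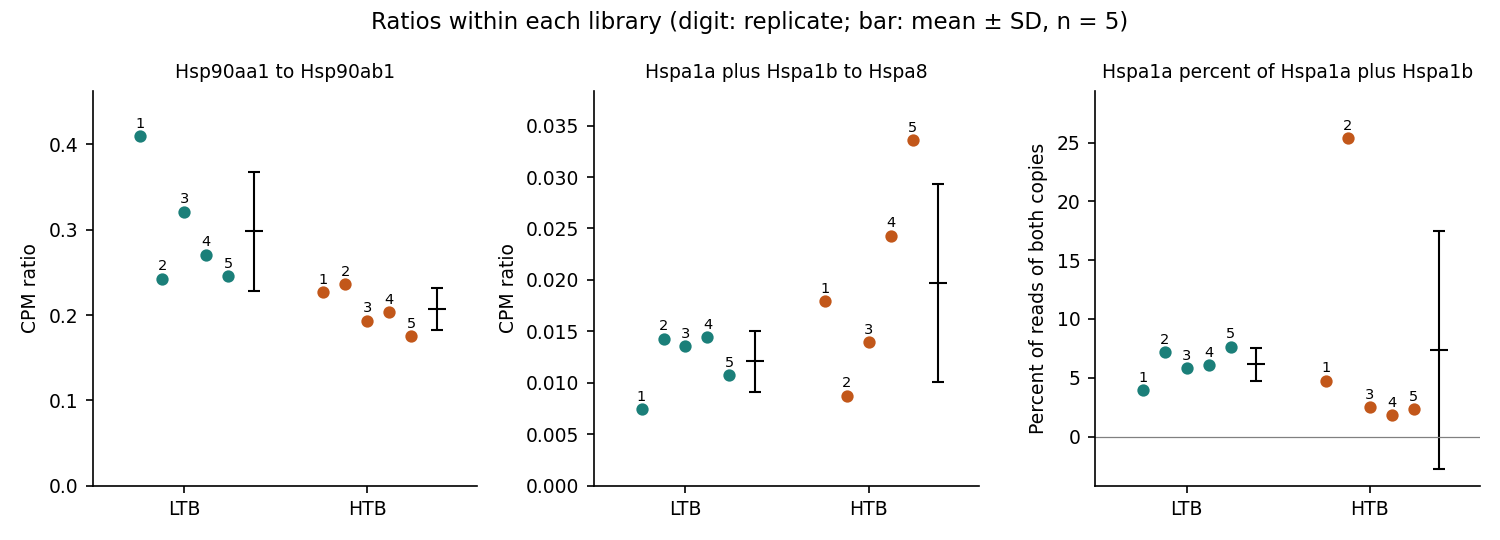
Ratios of CPM within each library (y axis), LTB left and HTB right, with points labelled by replicate and bars for mean ± SD of 5. The ratio of Hsp90aa1 to Hsp90ab1 does not overlap between groups (at most 0.236 in HTB, at least 0.242 in LTB), and Hspa1a takes 25.4% of the reads of both Hspa1 copies in HTB replicate 2.

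Hspa8 (15481, chr9:40801273-40805200, plus strand), the constitutive HSP70 that also serves clathrin uncoating and chaperone-mediated autophagy, did not pass in the fit on all 10 libraries. Its values were 2943, 3785, 2766, 2525 and 2373 CPM in HTB and 4128, 3230, 3254, 3403 and 3428 CPM in LTB. HTB replicate 2 lay above 4 of the 5 LTB libraries, and the other 4 HTB libraries lay below every LTB library. The log2 fold change was -0.28 ± 0.12 (adjusted p = 0.169). Without HTB replicate 2, the library with 16650 CPM of muscle markers, it became -0.39 ± 0.09 and passed (adjusted p = 0.0163). In that fit 3 of the 10 members were lower (Hsp90aa1, Hspa8 and Dnajb1) and 0 higher, beside 12.7% lower and 9.77% higher of 13551 genes. The part of the muscle transcripts in the value of Hspa8 in that library was not tested.

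Neither of the stress-inducible HSP70 copies passed. Hspa1b, the one whose log2 fold change was positive in all 18 alternatives, had 50.3, 24.7, 37.6, 60.3 and 77.9 CPM in HTB and 29.5, 42.8, 41.5, 46.1 and 33.9 CPM in LTB. The HTB libraries held both the highest and the lowest value of the series, and their SD was 40.8% of the mean against 17.7% in LTB. The log2 fold change was 0.37 ± 0.26 (adjusted p = 0.375). Without HTB replicate 2 it was 0.55 ± 0.20 (adjusted p = 0.0676), and without HTB replicate 5 it was 0.16 ± 0.24 (adjusted p = 0.724).

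Hspa1a was at 2.51, 8.38, 0.952, 1.12 and 1.87 CPM in HTB and at 1.21, 3.31, 2.56, 2.98 and 2.80 CPM in LTB. HTB replicate 2 stood alone, with over 3 times the next HTB value, while the other 4 HTB libraries lay below 4 of the 5 LTB libraries. The fitted log2 change was 0.20 ± 0.57 (adjusted p = 0.841) with all libraries and -0.67 ± 0.35 (adjusted p = 0.184) without HTB replicate 2, so no direction can be given. Hspa1a made up 25.4% of the reads of both copies in HTB replicate 2, 1.83% to 4.76% in the other HTB libraries and 3.95% to 7.64% in LTB. Counted as 1 gene, the 2 copies had a log2 fold change of 0.36 ± 0.23 (adjusted p = 0.313). Their sum stood to Hspa8 in a CPM ratio of 0.00874 to 0.0336 in HTB and of 0.00744 to 0.0144 in LTB, with overlapping groups.

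Dnajb1 (81489, chr8:83608175-83635489, plus strand), an inducible HSP40, fell. It had 92.5, 80.0, 83.9, 95.3 and 101.6 CPM in HTB and 99.3, 113, 110.1, 122 and 111 CPM in LTB. The groups overlapped through HTB replicate 5 and LTB replicate 1 alone, and the other 4 libraries of each group were apart. The log2 fold change was -0.29 ± 0.08 (adjusted p = 0.0374). The authors' deposited table lists -0.287 with a q of 0.0107. The call was kept without HTB replicate 2 (-0.25, adjusted p = 0.039), HTB replicate 5 (-0.34, adjusted p = 0.0333) or LTB replicate 1 (-0.33, adjusted p = 0.0309). It was lost without any other library, at adjusted p between 0.065 and 0.0973, and when low counts were left unfiltered (adjusted p = 0.0621). The span deposited for Dnajb1 ends at 83635489, whereas GENCODE M21 ends the gene at 83612653.

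Hsph1 (15505, chr5:149613933-149637155, minus strand), the HSP110 exchange factor, ranged from 99.8 to 159.5 CPM in HTB and from 96.1 to 172 CPM in LTB. Its lowest value belonged to LTB replicate 5 and its highest to LTB replicate 1, so the LTB range enclosed all HTB libraries. The log2 fold change was -0.20 ± 0.17 (adjusted p = 0.476).

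The mitochondrial chaperonin genes did not pass. Hspd1, which encodes HSP60, ranged from 351 to 612 CPM in HTB and from 416 to 708 CPM in LTB (log2 fold change -0.17 ± 0.17, adjusted p = 0.519). Hspe1, which encodes HSP10, the lid of the HSP60 barrel, ranged from 103 to 148 CPM in HTB and from 91.7 to 192 CPM in LTB (-0.26 ± 0.17, adjusted p = 0.347). For both genes LTB replicate 1 was the highest LTB library, LTB replicate 5 the lowest LTB library, HTB replicate 2 the highest HTB library and HTB replicate 5 the lowest. The ratio of Hspd1 to Hspe1 in CPM was 3.40 to 4.38 in HTB and 3.26 to 4.54 in LTB.

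Hsf1 (15499, chr15:76477367-76500982, plus strand), the factor that drives the heat shock response and is controlled mostly at the protein level, ranged from 73.1 to 92.0 CPM in HTB and from 77.6 to 100.3 CPM in LTB. The groups overlapped, and the log2 fold change was -0.16 ± 0.09 (adjusted p = 0.246).

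**Figure D3:**
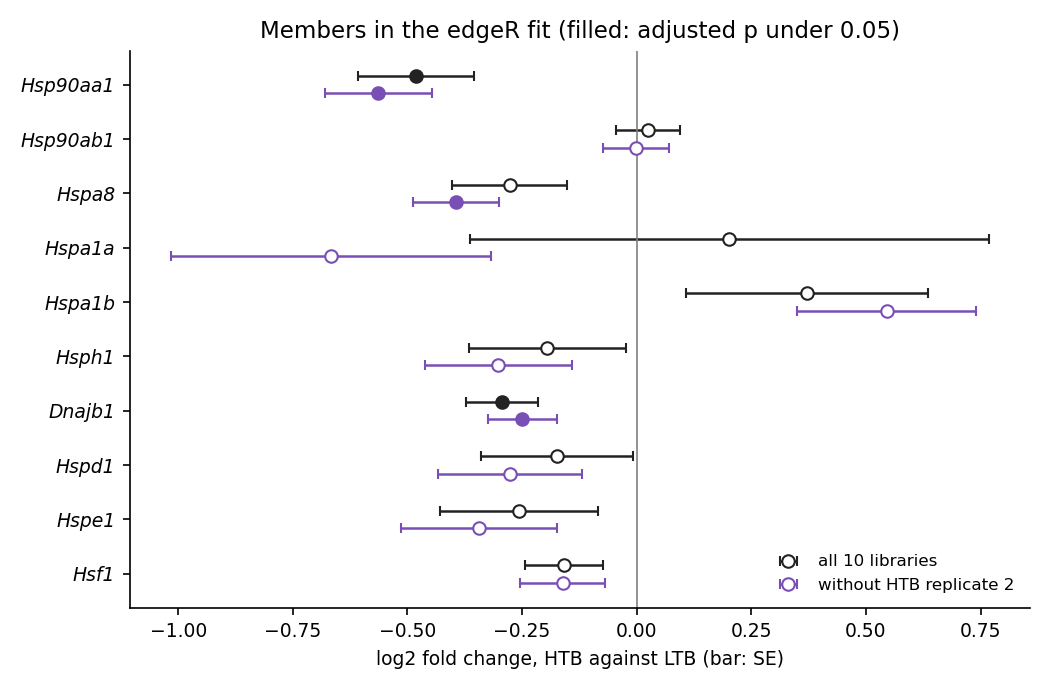
Log2 fold change of each member, HTB against LTB (x axis, bars SE), with all 10 libraries in black and without HTB replicate 2 in purple; filled points have an adjusted p under 0.05. Hsp90aa1 and Dnajb1 are filled in both fits, Hspa8 only without HTB replicate 2, and Hspa1a changes sign between them.

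Covariation of the members within groups was examined next. After each library's log2(CPM + 1) was set against its group mean, all 45 pairs of members were compared over the 10 libraries with an exact permutation test within groups (two-sided, 14400 permutations), and 7 pairs passed after Benjamini-Hochberg adjustment over the 45. By Spearman's rho 4 pairs passed. The pairs described were picked after their values were seen. Both genes of a pair come from the same library and share its depth and composition.

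Among Hsp90aa1, Hspa8, Hsph1, Hspd1 and Hspe1, 5 of the 10 pairs passed by r, and the other 5 had r of 0.604 to 0.764 (exact permutation, adjusted p = 0.0674 to 0.154). Outside this set, Hsf1 had r = 0.765 with Hspe1 and 0.737 with Hsph1 (exact permutation, adjusted p = 0.0674 and 0.0811). With Hsp90aa1, Hspa8 and Hspd1 its r was 0.455, 0.379 and 0.510. Hspd1 and Hspe1, the head-to-head pair shown above, had r = 0.843 (exact p = 0.00403, adjusted 0.0302) and rho = 0.90 (adjusted 0.0484), with r = 0.818 when the 2 libraries farthest from the median of Hspd1 were left out. Hsph1 with Hspe1 had r = 0.914 (exact p = 9.72e-04, adjusted 0.0208; rho = 0.90, adjusted 0.0484; r = 0.864 without the 2 farthest libraries). Hsp90aa1 with Hspd1 had r = 0.946 (exact p = 0.00139, adjusted 0.0208) but a rho of 0.80 that did not pass (adjusted 0.0719), and r = 0.898 without the 2 farthest libraries. Hsph1 with Hspd1 had r = 0.835 (exact p = 0.00639, adjusted 0.0411; rho = 0.90, adjusted 0.0484; r = 0.754 without the 2 farthest libraries). Hsp90aa1 with Hspa8 had r = 0.859 (exact p = 0.00326, adjusted 0.0302; rho = 0.80, adjusted 0.0719; r = 0.773 without the 2 farthest libraries). HTB replicate 2 and LTB replicate 1 were the high libraries of their groups for all 5 genes of this set. In these 5 passing pairs the 2 farthest libraries, picked before centring by group, held LTB replicate 1 but not HTB replicate 2. Without HTB replicate 2 alone, r was 0.814, 0.900, 0.932, 0.788 and 0.813 for these pairs in the order given. No value without both libraries was computed.

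Dnajb1 and Hspa1b had r = 0.928 (exact p = 2.08e-04, adjusted 0.00938), rho = 0.95 (adjusted 0.0484) and r = 0.905 without the 2 libraries farthest from the median of Hspa1b. Of the 10 pairs between these 2 genes and the 5 above, 1 passed: Hspa1b with Hspa8 had r = -0.900 (exact p = 0.00368, adjusted 0.0302; rho = -0.80, adjusted 0.0719; r = -0.690 without the 2 farthest libraries). Dnajb1 with Hspa8 (r = -0.807) and with Hsp90aa1 (r = -0.771) did not pass (exact permutation, adjusted p = 0.0672 each). Hspa1b with Hsph1 had r = -0.324, which was 0.166 without the 2 farthest libraries, and Hspa1b with Hspe1 had r = -0.366 (exact permutation, adjusted p = 0.495 and 0.393). Leaving out any 1 library kept r between 0.902 and 0.950 for Dnajb1 with Hspa1b, between -0.945 and -0.799 for Hspa1b with Hspa8, and between 0.781 and 0.879 for Hspd1 with Hspe1.

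**Figure D4:**
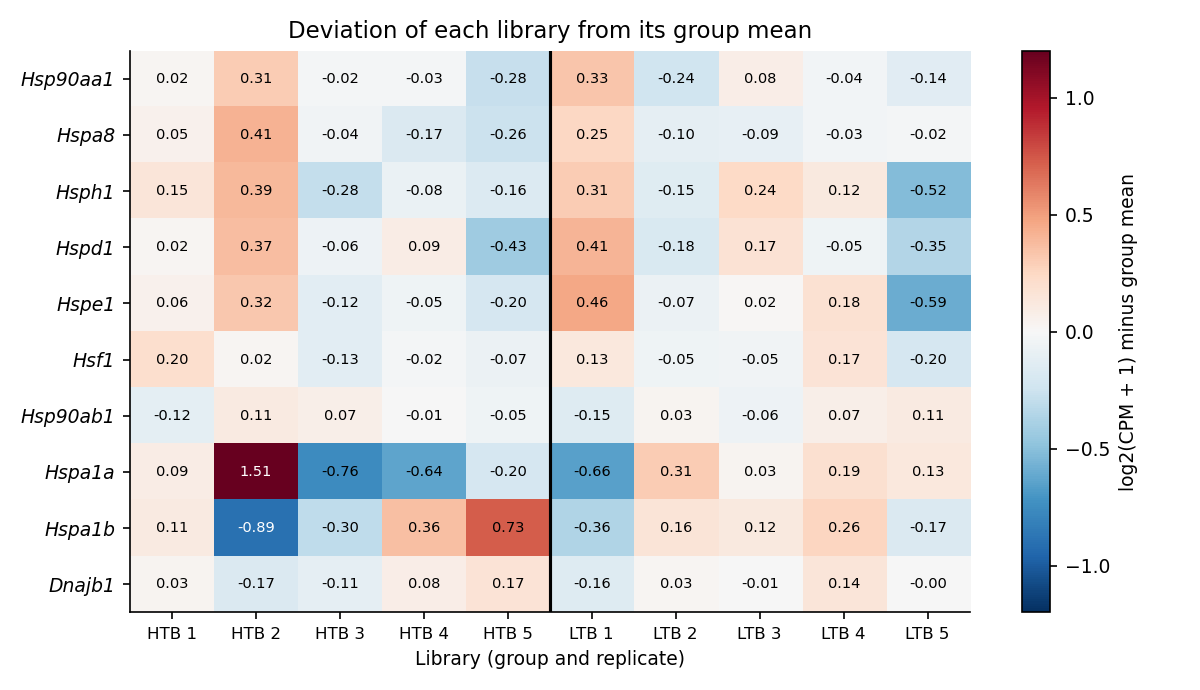
Deviation of each library from its group mean on the log2(CPM + 1) scale, with libraries on the x axis and members on the y axis; red is above and blue below the mean. The first 5 rows are red in HTB replicate 2 (0.31 to 0.41) and LTB replicate 1 (0.25 to 0.46), where Hspa1b (-0.89 and -0.36) and Dnajb1 (-0.17 and -0.16) are blue.

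The genes most like the mean pattern of the inducible members were sought among 12321 genes. The measure was the Pearson correlation over the 10 libraries with the mean deviation of Hsp90aa1, Hspa1a, Hspa1b, Hsph1 and Dnajb1. The highest were Ppip5k1 (0.947), Mccc1 (0.935), Ggcx (0.928), Fxr1 (0.883) and Ube2b (0.881), given as a description without a test. That mean followed Hspa1a (0.765) and Hsph1 (0.647). It followed Dnajb1 (0.214) and Hsp90aa1 (0.17) weakly and hardly Hspa1b (0.036), so it leans on Hsph1 and the sparse Hspa1a and is no common pattern of the inducible members.

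The wider chaperone system was then set beside the members. Of 84 tested genes in 9 lists of co-chaperones, other chaperone families and endoplasmic reticulum chaperones, 2 rose and 2 fell, or 4.76%, beside the 11.4% of all genes. Without HTB replicate 2 the counts were 2 and 13, or 17.9%, beside 22.4% of all genes. Both genes that rose serve HSP90 or HSP70. Fkbp5, a glucocorticoid-induced co-chaperone of HSP90, had 147, 120.2, 144, 159 and 178 CPM in HTB and 92.3, 103, 113, 124 and 95.3 CPM in LTB. Its highest LTB library lay just above its lowest HTB library, and the log2 fold change was 0.50 ± 0.11 (adjusted p = 0.0187, or 0.0387 with the replicate block). Bag5, a nucleotide exchange factor of HSP70, rose by 0.25 ± 0.07 (adjusted p = 0.0465). That call was lost with the replicate block (adjusted p = 0.0959).

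Among 12 HSP90 co-chaperones 1 rose and 0 fell, with a median of -0.08. Ppid, a cyclophilin, stood at -0.29 ± 0.13 (adjusted p = 0.154). Of the 5 HSP70 exchange factors, Bag5 rose and 0 fell (median 0.01). Bag3, an inducible HSF1 target, had 94.2 to 164 CPM in HTB and, without overlap, 74.9 to 91.6 CPM in LTB. The highest value was HTB replicate 2, and the change of 0.35 ± 0.15 did not pass (adjusted p = 0.154). Non-overlap in this direction held for 4.68% of all genes. Of 10 other cytosolic HSP40 genes 0 passed in edgeR, DESeq2 or limma voom, and 1 had an unadjusted p under 0.05 (median 0.06), with Dnajb4 at 0.27 ± 0.11 (adjusted p = 0.141) and Dnaja4 at 1.19 ± 0.55 (adjusted p = 0.177), the latter at 27.3 CPM in HTB replicate 2 and 3.29 to 4.94 CPM elsewhere. Of 8 other HSP70 and HSP110 genes 0 passed in edgeR and 1 in DESeq2, with 3 at an unadjusted p under 0.05 (median 0.01), with Hspa12a at -0.52 ± 0.17 (adjusted p = 0.0788) and Hspa2 at 0.27 ± 0.12 (adjusted p = 0.164). The list of other heat shock factor genes also holds Hsbp1, whose product binds HSF1. Its 3 tested genes, Hsf2, Hsf4 and Hsbp1, gave 0 calls in edgeR, DESeq2 or limma voom. At an unadjusted p under 0.05 the count was also 0 (median 0.11). Hsf2 stood at 0.11 ± 0.08 (adjusted p = 0.418) and Hsbp1 at 0.15 ± 0.08 (adjusted p = 0.215).

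Cytosolic and mitochondrial folding machines gave no call on all 10 libraries in edgeR, DESeq2 or limma voom, with 2 and 1 genes at an unadjusted p under 0.05. Of 14 genes of the TRiC chaperonin and prefoldin, which fold actin and tubulin, 12 had negative values (median -0.11). Cct2 stood at -0.23 ± 0.08 (adjusted p = 0.102) and Cct4 at -0.16 ± 0.06 (adjusted p = 0.121), and without HTB replicate 2 there were 3 genes of this list that passed as lower. Of 14 mitochondrial chaperone and protease genes 0 passed (median -0.04), with Dnaja3 at -0.15 ± 0.06 (adjusted p = 0.145) and Hscb at 0.21 ± 0.10 (adjusted p = 0.177). Of 12 endoplasmic reticulum chaperone genes 2 fell in edgeR and 0 rose (median -0.17). DESeq2 gave 4 lower, limma voom 2, and 5 were lower at an unadjusted p under 0.05 in edgeR. Over all genes, 1011 of 13469 were lower in edgeR, 1430 of 14022 in DESeq2 and 1000 of 13469 in limma voom. Sdf2l1, a partner of BiP, changed by -0.46 ± 0.10 (adjusted p = 0.0176) and calreticulin, Calr, by -0.29 ± 0.08 (adjusted p = 0.0373). The Calr call was lost with the replicate block (adjusted p = 0.119). Without HTB replicate 2 the count of this list was 6 lower and 0 higher, beside 12.7% lower and 9.77% higher of all genes.

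Small heat shock proteins, which hold unfolded proteins without ATP and are abundant in muscle, were high in 1 library, the one with the muscle markers. Hspb1, which encodes HSP27, reached 389 CPM in HTB replicate 2, against 0.684 to 2.75 CPM elsewhere. Hspb7, a cardiac and skeletal muscle member, had 360.3 CPM there and 0.267 to 5.20 CPM elsewhere. Cryab, alpha B-crystallin, had 614 CPM there and 21.7 to 73.5 CPM elsewhere. Of the 6 tested genes of this list 0 passed in edgeR or limma voom on all 10 libraries and 3 had an unadjusted p under 0.05, at a median of 1.69, and the median was -0.03 without HTB replicate 2. Immediate early genes, which respond within minutes to stress and tissue handling, went both ways: of 12, Egr3 rose (0.42 ± 0.10, adjusted p = 0.0236) and Atf3 fell (-0.95 ± 0.24, adjusted p = 0.0305). With the replicate block these calls were lost (adjusted p = 0.0978 and 0.0623) and Egr1 passed as higher (0.68 ± 0.21 without the block, adjusted p = 0.0574, and 0.0374 with it). The 12 genes summed to 695 to 854 CPM (HTB) and 724 to 1017 CPM (LTB), highest in LTB replicate 1, and its part in the members' values was not tested.

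**Figure D5:**
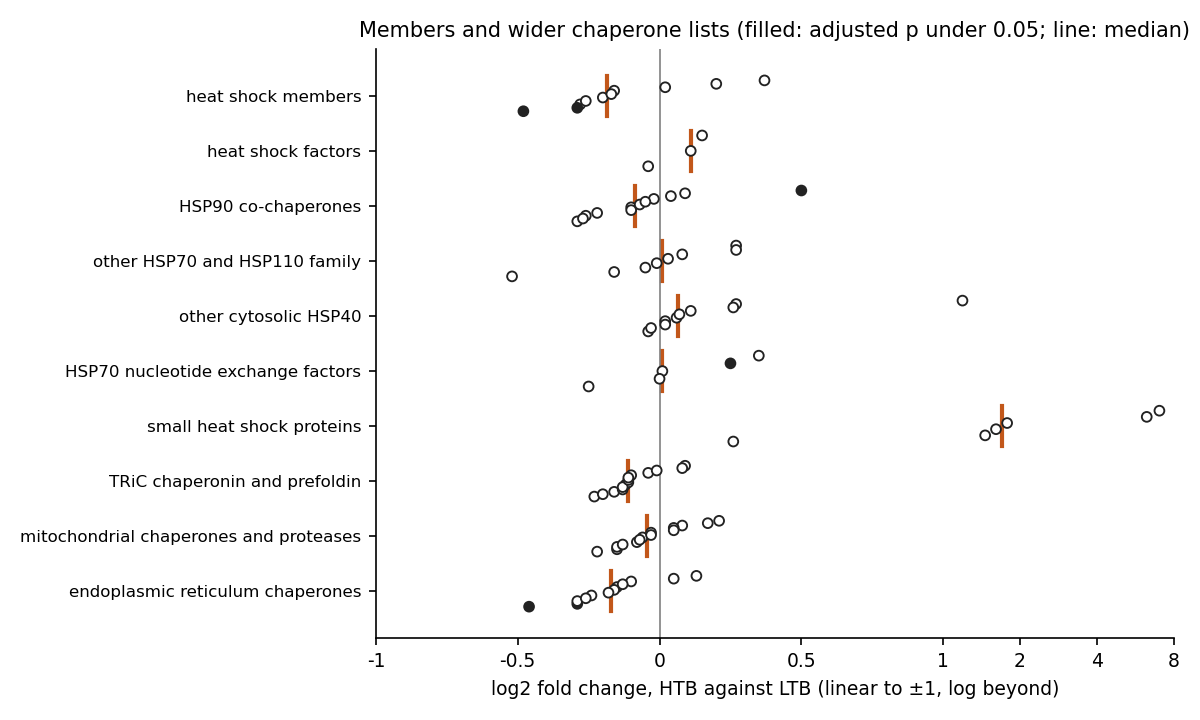
Log2 fold change, HTB against LTB (x axis, linear to ±1 and logarithmic beyond), of each tested gene in the member list and 9 chaperone lists (rows); filled points have an adjusted p under 0.05 and orange lines are medians. The member median is -0.18, beside -0.17 for endoplasmic reticulum chaperones and -0.11 for the TRiC chaperonin and prefoldin. The small heat shock proteins reach a median of 1.69 through HTB replicate 2, and the remaining lists have medians of -0.08 to 0.11.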

How the data were processed

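Estimated counts per gene and library were used as deposited by the authors, not scaled to depth. Whole numbers made up 86.4% of them (tolerance 1e-09); fractional values were rounded. The genome build was GRCm38 (mm10) per the submitters' processing notes. Aligner, counter and strandedness were not given in the sources used here. The authors' deposited log2 fold changes, p-values and q-values come from DESeq2, per the file headers. The 1 line naming no gene was dropped.

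Groups were compared by quasi-likelihood in edgeR (version 4.0.16, R 4.3.3), with TMM factors of 0.975 to 1.03, filterByExpr, group as the only term, Benjamini-Hochberg adjustment over 13469 genes and a threshold of 0.05. SEs are the fitted change divided by the square root of F. Tested on simulated counts of this comparison (13469 genes), it recovered 46% of genes altered 1.5-fold and 72% of those altered 2-fold; 3.7% of its calls were false. Members, lists and tests were chosen with earlier results of these data known. Named genes are the members, the 2 of smallest p in each chaperone and immediate early list, those that complete a small count, and 5 by likeness. Cryab, Egr1 and the marker genes named beyond this were chosen after their values were seen. All 20 pairs of libraries within groups differed beyond sampling noise. Alternatives were other scalings (DESeq2 1.42.0 size factors, upper quartile), the DESeq2 Wald test, limma voom (limma 3.58.1), other filters and thresholds, a replicate block and leaving out libraries. Reads of overlapping or antisense genes cannot be told apart without strand, and Hspd1 and Hspe1 have processed pseudogenes in GENCODE M21 that could share their reads. Motifs were searched in RefSeq windows of 250 bases before each start.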

Additional observations from a re-analysis of the deposited data

Results flagged for a closer look

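Among 30 sets of 5 values (each member, the sum of both Hspa1 copies and 4 ratios, in each group), 3 held a library separated from the others by more than 0.71 of the range; chance separates about 1 in 20 such sets. Hspa1a in HTB replicate 2 was 8.38 CPM against 0.952 to 2.51 CPM in the other HTB libraries. The share of Hspa1a in the reads of both copies was 25.4% in HTB replicate 2 against 1.83% to 4.76%, in a library that also had 16650 CPM of muscle markers. Hspa8 in LTB replicate 1 was 4128 CPM against 3230 to 3428 CPM in the other LTB libraries, in the library with the most T cell marker reads, 264 CPM.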

How the results depend on the processing

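The count of 2 members that passed became 0 at a threshold of 0.01, 1 with no filter on low counts and 0 with the replicate block, and ranged from 0 to 3 when 1 library was left out. The count over all genes, 1537, became 2527 by the DESeq2 Wald test, 971 with the replicate block, 736 to 3040 without 1 library, and 2908 without HTB replicate 2 and LTB replicate 1 together, an alternative added after seeing the data. Of 180 member values under alternatives, 173 kept their direction. Hspa1a turned to -0.23 with limma voom, -0.19 with the replicate block, -0.67 without HTB replicate 2 and -0.85 without HTB replicate 2 and LTB replicate 1. Hsp90ab1 turned to -0.0018 without HTB replicate 2, -0.014 without LTB replicate 1 and -0.039 without both. Leaving out 1 library gave -0.67 to 0.43 for Hspa1a and -0.014 to 0.055 for Hsp90ab1. The cause was not tested. The sum of both Hspa1 copies stayed positive and did not pass in 18 alternatives (adjusted p = 0.0925 to 0.636).

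With the replicate block, Hsp90aa1 stood at -0.48 (adjusted p = 0.0679) and Dnajb1 at -0.30 (adjusted p = 0.0786). Same-numbered libraries correlated at -0.023 to 0.096 in their deviations, and 2 of 5 HTB libraries correlated best with their own number. These few correlations cannot decide whether same-numbered libraries were paired, and no label says so. At this number of libraries 46% of 1.5-fold changes were recovered in simulation, an average over genes of many levels. Recovery at the levels and spreads of the members was not computed, so whether changes of theirs were missed is not known.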
